A study of Mus musculus with 10 samples.

Results

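The genes described here are 45 mouse genes of S phase and DNA replication, chosen by name from the probes of a whole-genome array that carries 31473 differently named genes. They were grouped by role into origin licensing (10 genes), origin firing (5), nucleotide supply (5), polymerases and primase (9), the sliding clamp and its loader (6), flap processing and ligation (2), single-strand binding (3), chromatin assembly (3) and cyclin E (2). Of the 45, 41 were bright enough to be tested. Cdc6, Orc1, Pole2 and Ccne2 were too dim at every time point to be tested and are not counted below. A gene was bright enough when, at 1 time point or more, both arrays measured it well above background in 1 of the dyes.

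RNA came from whole livers of female C57BL/6 mice aged 8 weeks. All mice were fasted for 24 h and then given 1 intraperitoneal injection, of acetaminophen at 350 mg/kg in phosphate-buffered saline or of the saline alone. Acetaminophen is a painkiller whose overdose kills hepatocytes in the centre of the liver lobule. Livers were collected 3, 8, 24, 48 or 72 h later, and each of 10 arrays carried a control liver in the Cy3 dye and a treated liver in the Cy5 dye, with 2 arrays at each time point. Each sample is named as 1 mouse. Both groups of mice had been fasted, and no mouse without the fast entered the comparison.

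Every value below is a log2 ratio of treated over control liver unless stated otherwise, so that 1 stands for a doubling. Paired values are those of the array with treated mouse 1 (mouse 2 at 8 h) and then of the array with treated mouse 3. A gene was called when limma's moderated test gave an adjusted p under 0.05 (Benjamini-Hochberg over 24040 genes), and "rose" and "fell" are used of called genes only. The error given with a mean is the SE of the fit (n = 2 arrays). Control RNA always carried Cy3 and treated RNA Cy5, so within 1 time point the treatment and a probe's dye preference cannot be told apart. A constant preference drops out when 1 time point is subtracted from another. With 2 arrays a group, the spread behind the p-values was pooled over all 10 arrays (5 residual degrees of freedom). The arrays of a time point also differ in slide and scan day, so that spread mixes mice, slides and scan days. In whole liver, more cells of a type and more RNA per cell cannot be told apart.

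Before a cell copies its DNA, the origin recognition complex, Cdc6 and Cdt1 load the ring-shaped Mcm2-7 helicase onto each origin, a step called licensing. Mcm10 and the GINS complex then help turn the loaded ring into an active helicase, primase and DNA polymerase alpha start each strand, and the polymerases delta and epsilon extend it on the Pcna clamp. Most of these genes are targets of E2F factors and are low in adult liver, whose hepatocytes rest outside the cell cycle. Hepatocytes that survive an injury can re-enter it, and replication genes are widely used as a sign that they do.

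At 48 h, 24 of the 41 tested genes were called, where 33.2% of all genes were: 22 rose (background 18.9%) and 2 fell (background 14.3%). The median over the 41 was 0.46, against -0.01 over all genes. Cdt1, Gins3, Mcm6, Mcm3 and Mcm2 stood highest, with means from 1.21 to 1.58, and Tk1 and Mcm10 were the genes that fell.

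At 3 h, 2 of the 41 rose and 0 fell (background 2.44% and 2.9%, 5.35% in all). At 8 h, 2 rose and 4 fell (background 7.34% and 8.39%, 15.7% in all), and at 24 h, 3 rose and 4 fell (background 7.66% and 12%, 19.7% in all), or 5 and 4 with the scanner software's own log ratios and 1 and 2 with median centring. These counts rest on few genes and lie near the background. With each array centred on its median, the median over the 41 genes changed sign at 3 h and 24 h, from 0.17 to -0.27 and from 0.16 to -0.10, while the median of all genes moved to -0.24 and -0.12. At 72 h limma called 0 of the 41 in either direction (background 0.00832% each way, 0.0166% in all), with 3 under an unadjusted p of 0.05, as were 11.3% of all genes. The count at 72 h was 0 in all 23 other settings run. As 4 of all 24040 genes were called at 72 h, a count of 0 among 41 says little. Among the settings, scaling between arrays leaves the ratios unchanged and the authors' value table repeats the software's log ratios. These add no support to any result said to hold in every setting. The settings include leaving out each array in turn.

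The calls fell on 28 of the 41 genes. Cdt1 was called at 4 of the 5 time points, Mcm10, Tk1 and Rpa2 at 3, and Rfc2 and Fen1 at 2. Another 22 genes were called once, and 13 never. The share of all genes called at any time was not computed, so these counts have no background. At 48 h alone, 33.2% of all genes were called.

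Both arrays at 48 h pointed up for 29 of the 41 genes and down for 4, against 36.9% and 40% of all genes. The array of mouse 1 gave the larger median over the 41, 0.46 against 0.32 for mouse 3. Without the mouse 1 array, 10 genes rose and 3 fell, and without the mouse 3 array 16 rose and 1 fell. With each array centred on its median in place of the intensity-dependent loess correction, 10 rose and 0 fell at 48 h. Over all genes that setting called 1734 at 48 h, and 83.1% of these calls were higher, against 56.9% with loess. The direction of the 10 calls therefore has a high background. Of the 24 calls, 6, those of Mcm2, Cdt1, Gins3, Fen1, Lig1 and Chaf1a, held in every setting in which the gene was tested.

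**Figure D1:**
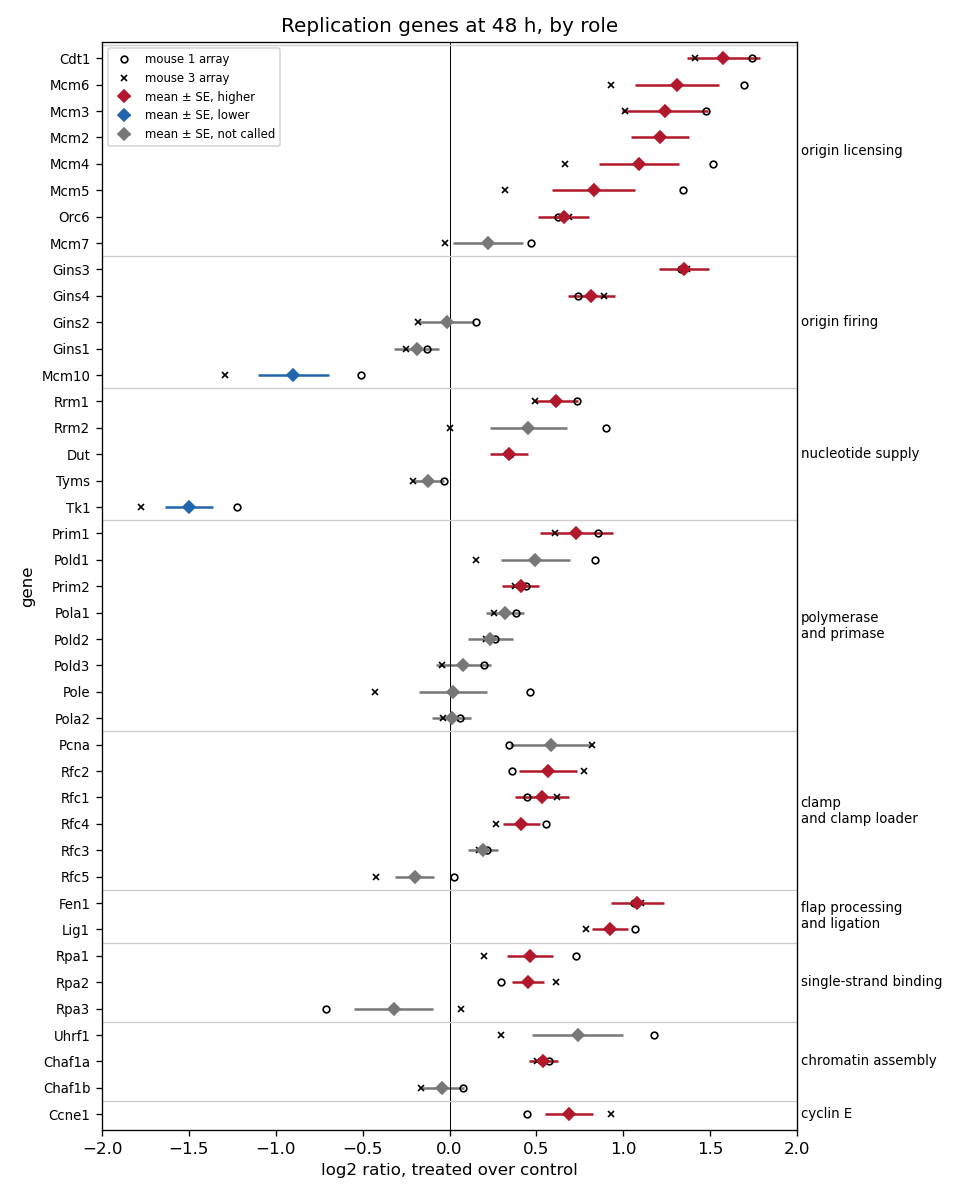
Log2 ratio of treated over control at 48 h (horizontal axis) for the 41 tested genes (vertical axis, grouped by role). Diamonds with bars are means ± SE of the fit, red for higher, blue for lower and grey for not called; open circles are the mouse 1 array and crosses the mouse 3 array. Licensing genes from Cdt1 (1.58) to Orc6 (0.66) lie to the right of 0, and Tk1 (-1.50) and Mcm10 (-0.90) to the left.

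Proximal promoters were read for the genes that moved together and for the pair that moved against them. RefSeq promoter sequences of GRCm38.p6, running from 250 bases before to 50 bases after a transcript start, were matched for 37 of the 45 genes, some with several starts. The E2F-type motifs searched, on both strands, were TTTCCCGC, TTTGGCGC, TTTCGCGC and TTTGCCGC. At least 1 of them was in 15 of 43 promoters of these genes (34.9%) and in 744 of 32851 promoters in all (2.26%).

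By response at 48 h, the E2F-type motif was in 6 of 21 promoters of genes that rose at 48 h (28.6%), in 6 of 17 of tested genes not called (35.3%), and in 0 of 2 of genes that fell. The CCAAT box was in 24 of 43 promoters (55.8%) against 37.4% of all. The cell cycle homology motif, TTTGAA or TTCGAA, was in 6 of 43 (14%) against 19.2%. Such a match is a description of the letters and not evidence of binding.

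The 200 bases before the start are shown for Mcm5, Mcm6 and Gins3, which rose at 48 h and carry the motif there, and for Mcm10 and Tk1, which fell and do not. Capitals mark the E2F-type motifs, which overlap in places, and the CCAAT boxes, on either strand. The stretches are chr8:75109309-75109508 on the plus strand for Mcm5, chr1:128359706-128359905 on the minus strand for Mcm6, chr8:95633359-95633558 on the plus strand for Gins3, chr2:5012792-5012991 on the minus strand for Mcm10 and chr11:117826015-117826214 on the minus strand for Tk1.
Mcm5: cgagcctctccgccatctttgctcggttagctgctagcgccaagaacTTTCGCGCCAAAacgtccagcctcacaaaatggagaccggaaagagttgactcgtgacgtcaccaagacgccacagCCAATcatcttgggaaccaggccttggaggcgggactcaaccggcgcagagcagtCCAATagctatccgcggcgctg
Mcm6: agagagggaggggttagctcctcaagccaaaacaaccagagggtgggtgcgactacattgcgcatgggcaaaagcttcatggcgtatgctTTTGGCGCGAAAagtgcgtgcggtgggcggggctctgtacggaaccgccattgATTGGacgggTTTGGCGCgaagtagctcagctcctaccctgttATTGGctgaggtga
Gins3: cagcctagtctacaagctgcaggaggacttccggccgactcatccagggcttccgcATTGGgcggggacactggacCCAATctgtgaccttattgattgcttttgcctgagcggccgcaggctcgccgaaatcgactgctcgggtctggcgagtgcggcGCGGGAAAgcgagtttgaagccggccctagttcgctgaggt
Mcm10: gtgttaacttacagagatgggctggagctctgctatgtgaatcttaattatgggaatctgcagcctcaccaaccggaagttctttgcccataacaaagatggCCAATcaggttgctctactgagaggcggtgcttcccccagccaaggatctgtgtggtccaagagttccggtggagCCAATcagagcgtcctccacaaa
Tk1: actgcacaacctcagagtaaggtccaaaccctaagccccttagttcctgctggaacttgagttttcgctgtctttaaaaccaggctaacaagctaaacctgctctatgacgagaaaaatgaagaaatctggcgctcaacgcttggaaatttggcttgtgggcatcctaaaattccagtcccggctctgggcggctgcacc
Mcm6 carries 3 E2F-type matches in this stretch, some of them overlapping, Mcm5 carries 2 that overlap, and Gins3 carries 1. Mcm10 carries 2 CCAAT boxes and no E2F-type match, and Tk1 carries neither.

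Most licensing genes rose at 48 h: 7 of the 8 tested rose and 0 fell, with a median of 1.15. The background was 18.9% and 14.3%, as for every role at this time. The medians of the arrays were 1.41 for mouse 1 and 0.81 for mouse 3. At 24 h the median was 0.36, with Cdt1 alone called. At 8 h the array medians were 0.43 for mouse 2 and -0.34 for mouse 3, and at 72 h the median was 0.04. Between times, where a constant dye preference drops out, 0 of the 8 were called from 24 to 48 h (background 10% higher and 3.46% lower). From 48 to 72 h 3 went down, namely Mcm2, Mcm3 and Cdt1, and 0 went up (background 13.2% and 9.03%).

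Cdt1, which brings the helicase to the origin, stood at 1.25 and 0.78 at 3 h, 1.02 and 0.63 at 8 h, 2.00 and 1.33 at 24 h, 1.74 and 1.41 at 48 h, and 0.06 and 0.68 at 72 h. All 10 arrays lay above 0, and those of 24 and 48 h were the highest. It rose 3.17-fold at 24 h (adjusted p = 0.00097, limma) and 2.98-fold at 48 h (0.000872), and by 1.01 ± 0.21 at 3 h (0.0325) and 0.82 ± 0.21 at 8 h (0.0346). The calls at 3 h and 8 h were lost when either 8 h array was left out, and that at 3 h also without either 3 h array. Median centring, the software's log ratios, the authors' value table and an intensity trend also lost the 3 h and 8 h calls. Normexp offset 0 and normexp fitted on all spots lost the 8 h call as well. The fall from 48 to 72 h passed the test, at -1.20 ± 0.30 (adjusted p = 0.0231, limma).

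Mcm6, a subunit of the helicase ring (probe at chromosome 1, 130228178 to 130228237, mm9), stood at 0.17 and 0.33 at 3 h, -0.07 and -0.80 at 8 h, 0.57 and -0.13 at 24 h, 1.69 and 0.93 at 48 h, and 0.39 and 0.08 at 72 h. The 48 h arrays lay above all others. The steps from 24 to 48 h, 1.09 ± 0.34, and from 48 to 72 h, -1.08 ± 0.34, did not pass the test (adjusted p = 0.0724 and 0.0558, limma). The rise at 48 h was 1.31 ± 0.24, or 2.48-fold (adjusted p = 0.00392, limma), and without the mouse 1 array the adjusted p was 0.0654.

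Mcm3 stood at 0.26 and 0.52 at 3 h, 0.45 and -0.50 at 8 h, 0.73 and -0.04 at 24 h, 1.48 and 1.01 at 48 h, and -0.15 and 0.04 at 72 h. It too was highest on the 48 h arrays, at a mean of 1.24 ± 0.25 (adjusted p = 0.00559, limma; 0.0808 without the mouse 1 array). A second Mcm3 probe gave 1.17 at 48 h.

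In treated livers Mcm2 was well above background on 0 of 2 arrays at 3 h and on 1 of 2 at 8 and at 72 h. Its ratios stood at -0.06 and -0.08, -0.10 and -0.93, 0.45 and 0.31, 1.21 and 1.21, and -0.20 and -0.02 at 3, 8, 24, 48 and 72 h. The 48 h arrays gave the same value, and the rise was 1.21 ± 0.17 (adjusted p = 0.000966, limma). From 8 to 24 h its ratio grew by 0.90 ± 0.24 (adjusted p = 0.0446), and from 48 to 72 h it fell by 1.32 (SE 0.24, adjusted p = 0.00603).

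Among the other licensing genes, Mcm4 stood at 1.51 and 0.67 at 48 h, Mcm5 at 1.34 and 0.32, and Orc6, a subunit of the origin recognition complex, at 0.62 and 0.69. All rose, with adjusted p of 0.00716, 0.0288 and 0.0095. Mcm4 and Mcm5 lost the call without the mouse 1 array (0.112 and 0.392) and Orc6 without either (0.0607 and 0.0956). With median centring the calls of Mcm5 and Orc6 were lost (0.0539 and 0.0727), and with the software's log ratios or the authors' value table that of Mcm5. Mcm7, the sixth ring subunit, stood apart at 0.47 and -0.03, with a mean of 0.22 ± 0.20 (adjusted p = 0.446). The largest Mcm7 mean was 0.46 ± 0.20, at 24 h (adjusted p = 0.164). A ring needs each of its subunits, and the 5 others rose.

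Cdc6 gave ratios between -0.06 and 0.17 on the 10 arrays and Orc1 between -0.14 and 0.08, at probes near the background, so no change could be read from them in either direction.

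**Figure D2:**
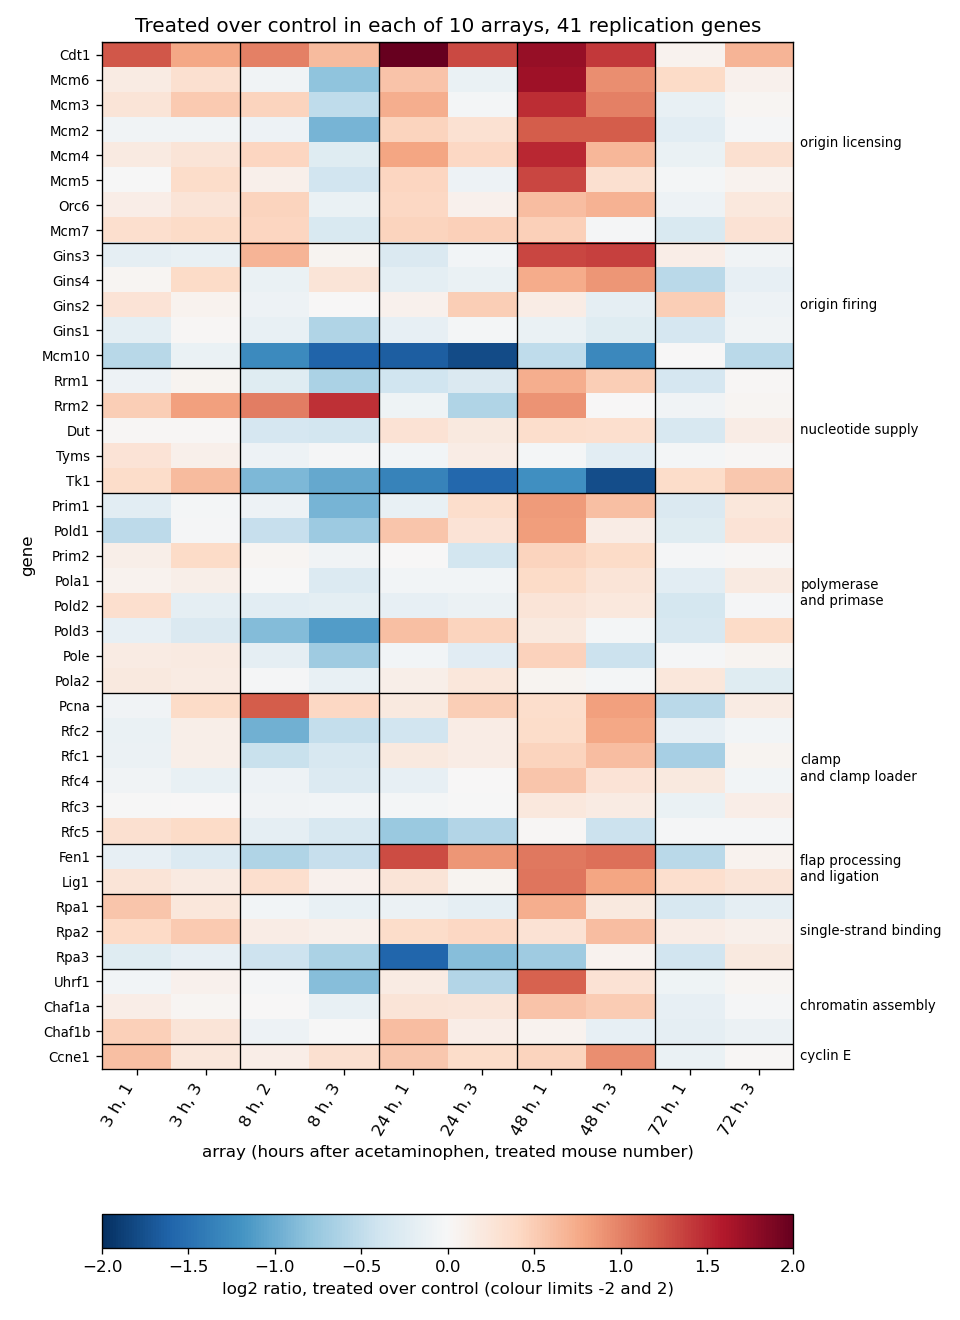
Log2 ratio of treated over control (colour, limits -2 and 2) for the 41 tested genes (rows, by role) on each of the 10 arrays (columns, hour and treated mouse number). The 48 h columns are mostly red, with Tk1 and Mcm10 blue from 8 to 48 h, and the 72 h columns are pale.

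Origin firing split into genes that rose and a gene that fell. At 48 h, 2 of 5 rose and 1 fell (background 18.9% and 14.3%), counts that rest on few genes. The median was -0.02, or 0.04 with median centring. Gins3 and Gins4 rose, Gins1 and Gins2 did not pass the test, and Mcm10 fell. The GINS subunits act as 1 complex.

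Gins3 (probe at chromosome 8, 98168040 to 98168099, mm9) stood at -0.18 and -0.15 at 3 h, 0.69 and 0.05 at 8 h, -0.30 and -0.05 at 24 h, 1.33 and 1.37 at 48 h, and 0.13 and -0.07 at 72 h. The 48 h arrays were the only ones above 1. The rise was 1.35 ± 0.14, or 2.55-fold (adjusted p = 0.000286, limma), and the ratio changed by 1.52 ± 0.20 from 24 to 48 h (0.00418) and by -1.32 ± 0.20 from 48 to 72 h (0.00333).

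Gins4 stood at 0.03 and 0.38, -0.13 and 0.25, -0.19 and -0.13, 0.74 and 0.89, and -0.54 and -0.17 at 3, 8, 24, 48 and 72 h. It was highest at 48 h and lowest at 72 h, and the rise at 48 h was 0.81 ± 0.13 (adjusted p = 0.00235, limma; 0.0788 with median centring). Gins1 stood at -0.20 and 0.02, -0.14 and -0.61, -0.16 and -0.03, -0.13 and -0.25, and -0.34 and -0.06, and was called at no time. Gins2 ranged from -0.18 to 0.49 and was not called either.

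Mcm10 (probe at chromosome 2, 4911785 to 4911844, mm9), which helps the loaded helicase to start and keeps primase-polymerase alpha at the fork, went the other way. Its ratios were -0.56 and -0.13 at 3 h, -1.28 and -1.60 at 8 h, -1.65 and -1.78 at 24 h, -0.51 and -1.29 at 48 h, and 0.00 and -0.53 at 72 h. The arrays of 8 and 24 h were all at -1.28 or lower. It fell at 8, 24 and 48 h, with means of -1.44 ± 0.21, -1.72 ± 0.21, which is 3.29-fold, and -0.90 ± 0.21 (adjusted p = 0.00329, 0.000694 and 0.0107, limma). The 8 h call was lost without the mouse 3 array of that hour and the 48 h call without the mouse 3 array (adjusted p = 0.185), whereas the 24 h call held in all 23 other settings. With median centring the calls at 8 h and 48 h were lost as well (adjusted p = 0.116 and 0.402, limma). No step of Mcm10 between neighbouring times, where a constant dye preference drops out, passed the test (adjusted p = 0.112, 0.64, 0.106 and 0.16, limma).

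Nucleotide supply held both a gene that fell at 3 time points and genes that rose. At 48 h, 2 of 5 rose and 1 fell (background 18.9% and 14.3%), again few genes. The median was 0.34 (array medians 0.35 for mouse 1 and 0.01 for mouse 3). With median centring 0 of the 5 were called. At 8 h and 24 h the medians were -0.35 and -0.34, with array medians of -0.25 and -0.36 and of -0.08 and -0.29. Their enzymes make the deoxynucleotides that the polymerases use, some by reducing ribonucleotides (Rrm1, Rrm2), others by methylating uridylate (Tyms), salvaging thymidine (Tk1) or removing dUTP (Dut).

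Tk1 (probe at chromosome 11, 117676845 to 117676904, mm9) stood at 0.37 and 0.63 at 3 h, -0.90 and -1.03 at 8 h, -1.33 and -1.57 at 24 h, -1.22 and -1.78 at 48 h, and 0.37 and 0.54 at 72 h. The arrays of 8, 24 and 48 h all lay below those of 3 and 72 h, without overlap. Tk1 fell at 8, 24 and 48 h, with means of -0.96, -1.45 and -1.50 (SE 0.14 each), the last a 2.83-fold difference (adjusted p = 0.00354, 0.000265 and 0.00017, limma). Between neighbouring times its ratio fell by 1.47 (SE 0.20) from 3 to 8 h (adjusted p = 0.0189), and grew by 1.96 ± 0.20 from 48 to 72 h (0.000744). The 8 h value lost its call without either 8 h array, and the step from 3 to 8 h without any array of 3 or 8 h. With median centring the 8 h and 48 h values were -1.26 and -1.19, and neither was called (adjusted p = 0.261 and 0.116, limma).

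Rrm2, the cell-cycle-regulated subunit of ribonucleotide reductase, stood at 0.49 and 0.82 at 3 h, 1.02 and 1.47 at 8 h, -0.08 and -0.61 at 24 h, 0.90 and 0.01 at 48 h, and -0.07 and 0.05 at 72 h. It was highest at 8 h, when most of the other genes were low, and the 48 h arrays disagreed. The rise at 8 h was 1.24 ± 0.22, or 2.37-fold (adjusted p = 0.00796, limma). The call was lost without either 8 h array and with median centring (adjusted p = 0.219, limma). From 8 to 24 h the ratio fell by 1.59 (SE 0.31, adjusted p = 0.0147). At 48 h the mean was 0.45 ± 0.22 (adjusted p = 0.152).

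Rrm1, the partner subunit, was at -0.09 and 0.06, -0.25 and -0.63, -0.40 and -0.29, 0.73 and 0.49, and -0.33 and 0.02 at 3, 8, 24, 48 and 72 h. It was highest on the 48 h arrays, and the step from 24 to 48 h was 0.95 ± 0.18 (adjusted p = 0.0125). The rise at 48 h was 0.61 ± 0.13 (adjusted p = 0.00688, limma; 0.0931 without the mouse 1 array). The subunits of this enzyme had their highest ratios at different times, Rrm2 at 8 h and Rrm1 at 48 h; whether those courses differ was not tested.

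Dut stood at 0.02 and 0.02, -0.33 and -0.36, 0.29 and 0.19, 0.35 and 0.33, and -0.31 and 0.15. Its rise at 48 h, 0.34 ± 0.11 (adjusted p = 0.0427, limma), was lost when any array of 3, 8, 24 or 48 h was left out. Normexp offset 0, median centring, the software's log ratios and the authors' value table also lost it. The step from 8 to 24 h, 0.59 ± 0.15, also passed the test (0.0449). Tyms ranged from -0.21 to 0.27 and was called at no time.

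Of the polymerase and primase genes, 2 of 8 rose and 0 fell at 48 h, near the background of 18.9% and 14.3%. The median was 0.28. With median centring or the scanner software's log ratios 0 of the 8 were called then. At 8 h, 1 of 8 fell (background 8.39%), and the median was -0.32.

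Prim1, the catalytic primase subunit, stood at -0.20 and -0.04 at 3 h, -0.11 and -0.93 at 8 h, -0.15 and 0.35 at 24 h, 0.85 and 0.61 at 48 h, and -0.29 and 0.23 at 72 h. Prim2, the large primase subunit, stood at 0.12 and 0.38, 0.03 and -0.07, 0.01 and -0.37, 0.44 and 0.38, and -0.02 and 0.03. Their means were highest at 48 h, and both rose there, by 0.73 ± 0.21 and 0.41 ± 0.11 (adjusted p = 0.0284 and 0.0208, limma). Either call was lost without either 48 h array, with median centring, with the software's log ratios and with the authors' value table, and that of Prim2 also with normexp offset 0. At 24 h the Prim2 probe was not well above background on either treated array and on 1 of 2 control arrays, so its 24 h values are limited by dimness.

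Pold1, the catalytic subunit of polymerase delta, stood at -0.52 and -0.02, -0.46 and -0.72, 0.55 and 0.27, 0.84 and 0.15, and -0.24 and 0.27. It was negative on both 8 h arrays and positive on those of 24 and 48 h, and no time point passed the test (adjusted p = 0.0935 at 48 h and 0.0869 at 8 h). Pola1, the catalytic subunit of polymerase alpha, stood at 0.08 and 0.12, -0.01 and -0.27, -0.05 and -0.06, 0.39 and 0.25, and -0.21 and 0.18, with an adjusted p of 0.0596 at 48 h.

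Pold3, an accessory subunit of polymerase delta, stood at -0.16 and -0.29 at 3 h, -0.87 and -1.12 at 8 h, 0.61 and 0.44 at 24 h, 0.20 and -0.04 at 48 h, and -0.31 and 0.38 at 72 h. It fell by 1.00 (SE 0.16) at 8 h (adjusted p = 0.00506, limma). This call was lost without either 8 h array and with median centring (adjusted p = 0.24, limma). The step from 8 to 24 h, 1.52 ± 0.22, passed the test (adjusted p = 0.00437). Its mean at 48 h was 0.08. Pola2, Pold2 and Pole had 48 h means of 0.01, 0.23 and 0.02, and none was called at any time. The Pola2 probe was dim, well above background in treated livers on 6 of 10 arrays.

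Of the clamp and clamp loader genes, 3 of 6 rose and 0 fell at 48 h (background 18.9% and 14.3%), with a median of 0.47. With normexp offset 0 or median centring 0 were called then, and 1 with the software's log ratios. At 8 h and 24 h 1 of 6 fell (background 8.39% and 12%). Pcna, the clamp itself and a common marker of dividing hepatocytes, was not called at any time.

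Pcna stood at -0.07 and 0.38 at 3 h, 1.21 and 0.41 at 8 h, 0.19 and 0.49 at 24 h, 0.34 and 0.82 at 48 h, and -0.54 and 0.17 at 72 h. The values of 8 and 48 h were the highest, at means of 0.81 ± 0.23 and 0.58 ± 0.23 (adjusted p = 0.0521 and 0.0935, limma), and the arrays of an hour differed by as much as the means. Pcna has processed copies in the genome, and its probe was not checked against them.

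The clamp loader subunit Rfc1 stood at -0.11 and 0.12, -0.44 and -0.32, 0.19 and 0.15, 0.44 and 0.62, and -0.66 and 0.05 at 3, 8, 24, 48 and 72 h. Rfc2 stood at -0.13 and 0.12, -0.96 and -0.48, -0.38 and 0.15, 0.36 and 0.77, and -0.16 and -0.05. Rfc4 stood at -0.06 and -0.15, -0.11 and -0.27, -0.16 and 0.01, 0.55 and 0.27, and 0.20 and -0.05. All were highest at 48 h, and Rfc1 and Rfc2 were lowest on an 8 h or a 72 h array.

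They rose at 48 h by 0.53 ± 0.15, 0.57 ± 0.17 and 0.41 ± 0.11 (adjusted p = 0.0288, 0.0316 and 0.0183, limma). Rfc1 lost the call without either 48 h array, Rfc2 without the mouse 3 array and Rfc4 without the mouse 1 array, and a second Rfc4 probe gave -0.10. Rfc2 fell by 0.72 (SE 0.17) at 8 h (adjusted p = 0.0238, limma) and was the only gene called in both directions. The Rfc2 call at 8 h was lost without the mouse 2 array and with median centring (adjusted p = 0.407, limma). It was also lost with the software's log ratios and the authors' value table. Rfc5 fell by 0.67 (SE 0.11) at 24 h (adjusted p = 0.00397, limma), at -0.75 and -0.59. That call was lost without the mouse 1 array, with median centring (0.104) and with normexp fitted on all spots (0.0595). Rfc3 was not called, at a dim probe that was well above background in treated livers on 6 of 10 arrays.

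Flap processing and ligation genes rose together at 48 h, both of 2 (background 18.9%), with a median of 1.00. Fen1 (probe at chromosome 19, 10273675 to 10273734, mm9), the nuclease that trims Okazaki fragments, stood at -0.17 and -0.27 at 3 h, -0.60 and -0.46 at 8 h, 1.30 and 0.89 at 24 h, 1.06 and 1.10 at 48 h, and -0.55 and 0.07 at 72 h. The arrays of 24 and 48 h were separate from the rest. Fen1 rose 2.13-fold at 24 h and 2.11-fold at 48 h (adjusted p = 0.00149 and 0.00108, limma), and the step from 8 to 24 h was 1.62 ± 0.21 (0.00295). The 24 h call was lost with median centring (adjusted p = 0.221).

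Lig1, the ligase that seals those fragments, stood at 0.26 and 0.18, 0.34 and 0.09, 0.26 and 0.05, 1.07 and 0.78, and 0.33 and 0.25 at 3, 8, 24, 48 and 72 h. All 10 arrays were above 0, and the 48 h arrays were separate from the others. The rise at 48 h was 0.92 ± 0.11 (adjusted p = 0.000408, limma), and the step from 24 to 48 h was 0.77 ± 0.15 (0.0141). At 24 h Fen1 was called and Lig1 was not, and the difference between the genes was not tested.

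Single-strand binding genes did not move as 1 group. Rpa1 and Rpa2 rose at 48 h and Rpa3 did not, although their products form 1 trimer. Rpa1 stood at 0.55 and 0.23, -0.05 and -0.16, -0.11 and -0.18, 0.73 and 0.20, and -0.32 and -0.18. Rpa2 stood at 0.41 and 0.52, 0.15 and 0.10, 0.37 and 0.42, 0.30 and 0.61, and 0.15 and 0.10. Rpa2 was above 0 on all 10 arrays, and Rpa1 was below 0 on both arrays of 8, 24 and 72 h.

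Rpa2 rose by 0.46 ± 0.09 at 3 h, 0.40 ± 0.09 at 24 h and 0.45 ± 0.09 at 48 h (adjusted p = 0.0273, 0.0181 and 0.00633, limma). None of its steps between neighbouring times, where a constant dye preference drops out, passed the test (adjusted p = 0.254, 0.248, 0.827 and 0.112, limma). Its call at 3 h was lost without any array of 3 or 8 h, that at 24 h without either 24 h array and that at 48 h without the mouse 3 array. Median centring, the software's log ratios, the authors' value table and normexp fitted on all spots also lost the 3 h and 24 h calls. All of these except normexp fitted on all spots lost the 48 h call too. Rpa1 rose by 0.46 ± 0.13 at 48 h (adjusted p = 0.0281), which was lost without the mouse 1 array (0.367), with normexp offset 0, with median centring (0.194), with the software's log ratios and with the authors' value table. With median centring or the software's log ratios 0 of the 3 genes were called at 48 h. A second Rpa1 probe gave 0.74.

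Rpa3 stood at -0.25 and -0.17, -0.41 and -0.64, -1.58 and -0.85, -0.71 and 0.07, and -0.38 and 0.20. It was lowest on the 24 h arrays and fell there by 1.22 (SE 0.23, adjusted p = 0.0063, limma). The call was lost without the mouse 1 array and with median centring (adjusted p = 0.101).

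Of the chromatin assembly genes, 1 of 3 rose at 48 h (background 18.9%). Chaf1a, the large subunit of the histone chaperone that works behind the fork, stood at 0.13 and 0.04, 0.02 and -0.15, 0.26 and 0.24, 0.57 and 0.51, and -0.16 and -0.02. Its 48 h arrays were the highest, at 0.54 ± 0.08 (adjusted p = 0.00162, limma). Across the other settings the 48 h value ranged from 0.41 to 1.75. The probe was dim, well above background in treated livers on 8 of 10 arrays. Chaf1b, its partner, stood at 0.47 and 0.25, -0.10 and -0.00, 0.61 and 0.13, 0.07 and -0.16, and -0.18 and -0.12, and was called at no time, while a second Chaf1b probe gave 0.59 at 48 h.

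Uhrf1, which guides the copying of DNA methylation, was not well above background at 3 h and stood at -0.06 and 0.08, -0.02 and -0.86, 0.16 and -0.59, 1.18 and 0.29, and -0.08 and 0.03. The mouse 1 array of 48 h was the highest, and the 48 h mean of 0.74 ± 0.26 did not pass the test (adjusted p = 0.0627). Ccne1, the cyclin that drives entry into S phase, stood at 0.60 and 0.22, 0.13 and 0.32, 0.54 and 0.37, 0.44 and 0.93, and -0.14 and 0.03. It rose at 48 h by 0.69 ± 0.14 (adjusted p = 0.00629, limma; 0.115 without the mouse 3 array), and a second probe gave 0.15.

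**Figure D3:**
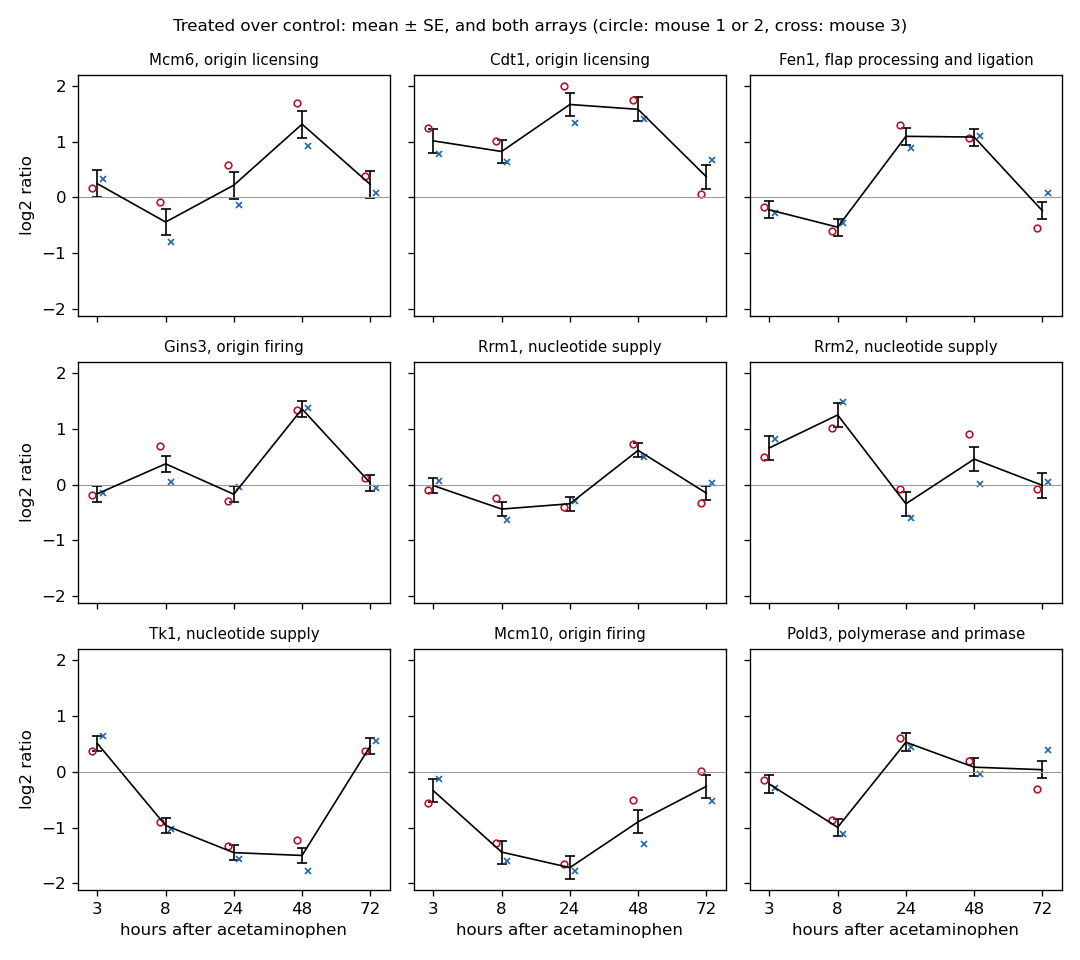
Log2 ratio of treated over control (vertical axis) against hours after acetaminophen (horizontal axis, evenly spaced) for 9 genes. Lines with bars are means ± SE of the fit, circles the first array and crosses the second; Mcm6, Gins3 and Rrm1 peak at 48 h, Fen1 and Cdt1 are high at 24 and 48 h, Rrm2 peaks at 8 h, and Tk1 and Mcm10 are low from 8 to 48 h.

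The neighbouring time points give the course of these genes with any constant dye effect removed. From 3 to 8 h, Tk1 alone was called, as lower (background 0.483% lower and 1.13% higher). From 8 to 24 h, 4 went up, namely Mcm2, Dut, Pold3 and Fen1, and Rrm2 went down (background 4.36% and 7.28%). From 24 to 48 h, Gins3, Gins4, Rrm1, Prim2 and Lig1 went up and 0 went down (background 10% and 3.46%), Prim2 from a treated level not well above background on either 24 h array. These early counts rest on few genes, and were as low as 0, 2 and 2 in turn when single arrays of the times compared were left out.

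From 48 to 72 h, 12 of the 41 ratios went down and 1 went up (background 13.2% and 9.03%), with a median of -0.48. The steepest were Gins3 and Mcm2, each at -1.32, and Fen1, also -1.32. Mcm3, Cdt1, Gins4, Rfc1, Rrm1, Ccne1, Rpa1, Lig1 and Chaf1a followed, from -1.30 to -0.63. Tk1 was the gene that went up. Without the mouse 1 array of 72 h, 5 went down and 1 went up. On that array the treated channel was dim, with 45.1% of probes well above background against 76.1% on the mouse 3 array, and 26 of the 45 genes here against 42. The log2 ratios of the 72 h arrays correlated at 0.24 over all genes, against 0.86 at 48 h, a comparison across genes that are not independent.

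The dyes were also tested one at a time, over the 5 time points. In control livers, the moderated F test over the 5 time points called 0 of the 41 genes (background 2.22%), with 10 under an unadjusted p of 0.05, as were 19% of all genes. In treated livers it called 10 (background 22%): Mcm2, Mcm6, Cdt1, Gins3, Pcna, Rrm2, Tk1, Prim2, Pold3 and Fen1. Without scaling between arrays it called 0 in treated livers, and 6 without the mouse 1 array of 24 h. Compared with 3 h, treated livers were called for 0 of the 41 genes at 8 h (background 0.22% higher, 0.00416% lower) and at 72 h (1.86% and 3.49%). At 24 h they were higher for 5, namely Mcm2, Mcm6, Cdt1, Pold3 and Fen1, and lower for Rrm2 and Prim2 (background 6.35% and 6.93%). On the mouse 1 array of 3 h, part of the reference here, the treated channel was dim, with 45.6% of probes well above background. Treated levels of Mcm2 at 3 h and of Prim2 at 24 h were not well above background on either array. The differences of these genes have no exact size. At 48 h they were higher for 5 genes and lower for 0 (background 6.8% and 4.65%). These were Mcm6 by 1.77 ± 0.29, Mcm3 by 1.32 ± 0.33, Fen1 by 0.84 ± 0.22, Gins3 by 0.76 ± 0.20 and Mcm2, given without a size for the same reason. Control levels at 48 h differed from 3 h by -0.75 ± 0.19 for Gins3 and -0.46 ± 0.14 for Fen1 (adjusted p = 0.0607 and 0.0976, limma). For Mcm6, Mcm3 and Mcm2 control levels stood above those of 3 h and were not called.

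Mcm6 levels in control livers, in log2 intensity, were 7.97 and 8.02 at 3 h, 8.60 and 9.39 at 8 h, 8.98 and 9.51 at 24 h, 8.78 and 8.62 at 48 h, and 8.59 and 8.48 at 72 h. In treated livers they were 8.14 and 8.35, 8.53 and 8.59, 9.55 and 9.38, 10.47 and 9.55, and 8.97 and 8.56. Treated levels were higher at 24 h than at 3 h by 1.22 ± 0.29 (adjusted p = 0.0233, limma). Control levels of 24 h stood 1.25 ± 0.26 above those of 3 h (adjusted p = 0.0616), and the ratio at 24 h was 0.22.

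Mcm10 levels in control livers were 9.18 and 8.86 at 3 h, 9.81 and 10.30 at 8 h, 10.57 and 10.22 at 24 h, 10.04 and 9.97 at 48 h, and 10.03 and 9.83 at 72 h. In treated livers they were 8.62 and 8.73, 8.53 and 8.70, 8.92 and 8.43, 9.54 and 8.68, and 10.03 and 9.30. Control levels were higher than at 3 h by 1.37 ± 0.21 at 24 h and by 0.99 ± 0.21 at 48 h (adjusted p = 0.0214 and 0.0378, limma), whereas treated levels differed from 3 h by -0.00 ± 0.33 and 0.43 ± 0.33 at those times. It was the only one of the 41 genes called in control livers at 24 or 48 h against 3 h (background 1.33% and 2.04% higher).

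For Tk1 neither dye passed the test at a single time against 3 h. At 48 h control levels were 0.99 ± 0.30 above and treated levels differed by -1.01 ± 0.34 from those of 3 h (adjusted p = 0.0968 and 0.102, limma). For Fen1 treated livers of 24 h were 1.45 ± 0.22 above those of 3 h (adjusted p = 0.00319), with control levels 0.14 ± 0.14 above 3 h. For Rrm2 the treated level fell by 1.53 from 3 to 24 h (SE 0.34, adjusted p = 0.0176).

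**Figure D4:**
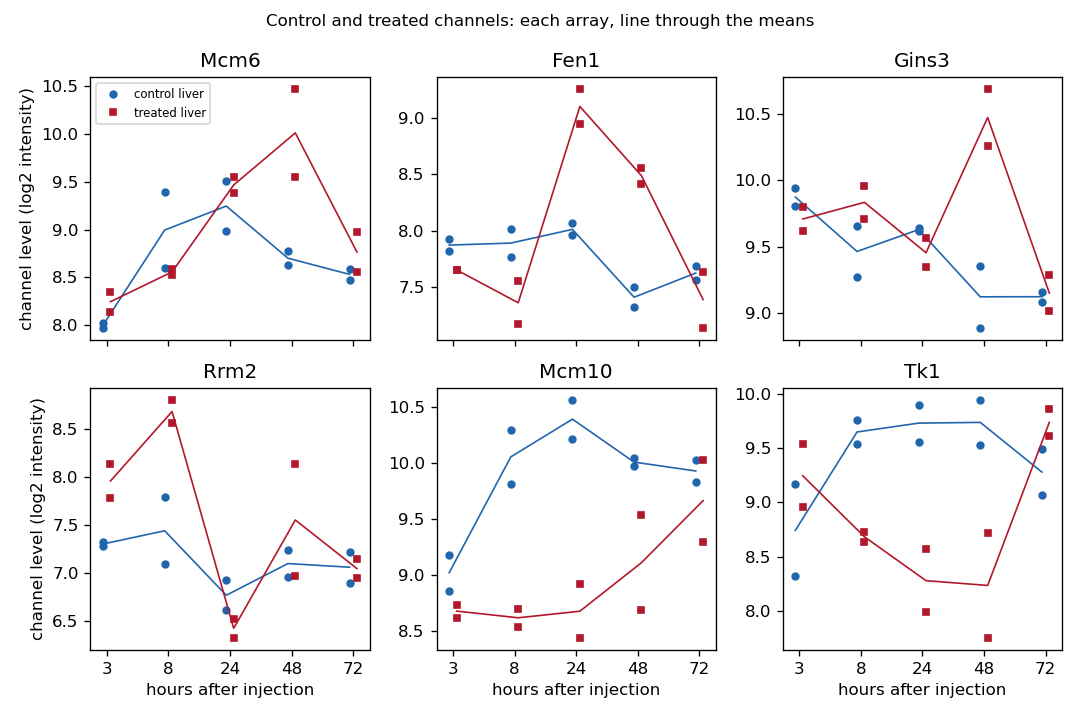
Channel level (vertical axis, log2 intensity after scaling, a separate scale in each panel) against hours after injection (horizontal axis, evenly spaced) for 6 genes; blue circles are control livers, red squares treated livers, and lines join the means of the 2 arrays. Treated livers have their highest mean at 48 h for Gins3 and at 24 h for Fen1, while for Mcm10 control livers climb after 3 h and treated livers stay low until 48 h.

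Other genes of the same pathway were counted from lists that do not overlap the 45. Of 37 tested further replication genes, 13 rose and 1 fell at 48 h (background 18.9% and 14.3%, as for every list and marker set at this time), with a median of 0.22. Pold4, the smallest subunit of polymerase delta, stood at 1.92 and 1.82, Pole4, a histone-fold subunit of polymerase epsilon, at 1.34 and 1.96, and Tipin, of the fork protection complex, at 1.14 and 1.03. At 3, 8, 24 and 72 h, 0, 2, 3 and 0 rose (background 2.44%, 7.34%, 7.66% and 0.00832%) and 0, 5, 1 and 0 fell (2.9%, 8.39%, 12% and 0.00832%).

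Of 13 tested further genes of nucleotide supply, 3 rose and 5 fell at 48 h, with a median of -0.08. Nme1, a nucleoside diphosphate kinase, stood at 1.52 and 0.93. The one-carbon enzymes Mthfd1 and Shmt2, which feed thymidylate and purine synthesis and are abundant in hepatocytes, stood at -1.21 and -1.11 and at -1.01 and -1.12. Rrm2b, the reductase subunit of resting cells, was not bright enough to be tested.

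Among the upstream regulators, 1 of 13 E2F and RB family genes rose at 48 h and 1 fell: E2f2 stood at 0.70 and 0.65, and the repressor E2f8 at -0.59 and -0.35. E2f8 was higher at 8 h and 24 h, at 0.95 and 1.12 and at 1.50 and 1.47. Of 13 tested G1 genes, 3 rose and 2 fell. The cyclin D1 gene Ccnd1 stood at -1.16 and -1.22 at 3 h, -1.31 and -1.23 at 8 h, 0.29 and 0.31 at 24 h, 1.00 and 1.56 at 48 h, and -0.86 and -0.42 at 72 h. It fell at 3 and 8 h and rose at 48 h (adjusted p = 0.00385, 0.00135 and 0.000398, limma).

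The inhibitor gene Cdkn1a stood at 3.62 and 3.17, 4.09 and 3.86, 3.57 and 2.20, 2.77 and 3.36, and -0.38 and -0.33, and rose at 3, 8, 24 and 48 h. It was high on the same 48 h arrays as the licensing genes, and was not called at 72 h. Cdc25a, the phosphatase that activates cyclin-dependent kinase, stood at 0.80 and 1.06 at 48 h and rose.

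Of 14 tested G2 and mitosis genes, 1 rose and 0 fell at 48 h (background 18.9% and 14.3%), with a median of 0.02, and the gene that rose was Aurka, at 0.71 and 0.26. Mki67 stood at 0.56 and -0.22 (mean 0.17 ± 0.19, adjusted p = 0.551) and Ccna2 at 0.05 and -0.07 (0.958). Cdk1 rose at 3 h and 24 h, at 0.73 and 0.84 and at 0.64 and 1.00, but not at 48 h, at 0.11 and -0.42. Top2a, Aurkb, Bub1b, Ttk, Nusap1 and Kif11 were not bright enough to be tested. Whether the replication genes differ from the mitosis genes as lists was not tested.

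Markers of cell types moved at 48 h as well. Of 10 hepatocyte markers, 6 fell and 0 rose (background 14.3% and 18.9%), with a median of -0.84; their summed level was 19.50 and 19.71 in control and 19.07 and 18.58 in treated livers (log2 intensity). Of 7 tested markers of recruited macrophages, 5 rose and 0 fell, with a median of 0.77 and summed levels of 12.59 and 12.74 in control and 13.83 and 12.80 in treated livers. Of 8 leukocyte markers 3 rose and 0 fell (11.4 and 10.93 against 12.58 and 11.46), of 8 Kupffer cell markers 3 rose and 0 fell (11.8 and 11.8 against 14.07 and 13.57), and of 5 tested neutrophil markers 3 rose and 1 fell (14.90 and 14.64 against 14.88 and 14.40).

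In biliary markers 3 of 7 tested rose and 0 fell (10.67 and 10.26 against 12.29 and 11.31). Spp1 is in both the biliary and the recruited macrophage list, so these counts are not separate. In lymphocyte markers 0 of 8 rose and 1 fell (12.40 and 13.32 against 11.82 and 12.60). Of the listed markers, the macrophage gene Ly6c2 and the neutrophil gene Ly6g were matched to no probe, and the neutrophil genes Mpo and Ngp were too dim to be tested. At 24 h 5 of 10 hepatocyte markers fell (background 12%) and 3 of 5 tested neutrophil markers rose (background 7.66%). At 72 h 0 markers of these lists were called, as with the replication genes. The part of cell composition in the replication genes' rise was not tested.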

How the data were processed

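The analysis started from the scanner files of the 10 arrays. Per the file headers, Agilent Feature Extraction 10.7.3.1 measured each spot's mean and local background intensity in both dyes, flagged outlier spots and wrote a background-subtracted, dye-normalized log10 ratio; the array design gives mm9 (NCBI37) coordinates. The deposited value table is a score of unstated scale: set against those log10 ratios it had a slope of 1.4427 and a correlation of 1 on all 10 arrays, a median of 0 and between 7.25% and 25.5% of values at exactly 0.

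Backgrounds were corrected with normexp (offset 50) and dyes with loess within each array in limma 3.58.1 (R 4.3.3). Control spots (1377), outlier flags (2718 in all) and 41 spots over 30 units below their local background were left out. The last step was chosen after seeing the files, because on 4 arrays those spots set the normexp fit; the fit on all spots is an added alternative. Of 39429 probes, 29659 were well above background in the same dye on both arrays of a time point, and the brightest probe stood for each of 24040 genes. Names came from RefSeq through the accession (26581 probes), the symbol (2597) or a synonym (492), and otherwise from the file (9759).

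limma fitted 1 mean per time point over the 10 arrays (5 residual degrees of freedom), with 4 contrasts between neighbouring times; each dye was also fitted alone after Aquantile scaling. Adjusted p-values are limma's, by Benjamini-Hochberg over 24040 genes, called at 0.05. The code was tested on simulated data. Per-array values are given for up to 4 genes of each role, those furthest from 0 at the time with the most calls and any called the other way, and in the other lists for up to 3 called genes and for Rrm2b, Cdkn1a, Ccnd1, Ccna2, Mki67 and Cdk1. Values of Pold3, Mcm4, Mcm5, Orc6, Mcm7 and Rfc5, and of E2f8 before 48 h, were added after they were seen. The genes and lists were chosen with earlier results of these data known. Arrays give no read depth, so their number limits the precision. Whether probes lie in exons or untranslated regions was not analysed here.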

Additional observations from a re-analysis of the deposited data

Results flagged for a closer look

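Between neighbouring time points, the treated-over-control log2 ratio of some genes differed by limma's test of the difference itself, with Benjamini-Hochberg adjustment over 24040 genes. From 3 to 8 h this was so for Tk1, at -1.47. From 8 to 24 h the ratio moved by 0.9 for Mcm2, 0.59 for Dut, 1.52 for Pold3, 1.62 for Fen1 and -1.59 for Rrm2. From 24 to 48 h it moved by 1.52 for Gins3, 0.98 for Gins4, 0.95 for Rrm1, 0.59 for Prim2, whose treated probe was not well above background at 24 h, and 0.77 for Lig1.

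From 48 to 72 h it moved by -1.32 for Mcm2, -1.3 for Mcm3, -1.2 for Cdt1, -1.32 for Gins3, -1.17 for Gins4, -0.76 for Rrm1, -0.84 for Rfc1, -1.32 for Fen1, -0.63 for Lig1, -0.71 for Rpa1, -0.63 for Chaf1a and -0.74 for Ccne1. Tk1 moved the other way, by 1.96. Groups of 2 arrays are too small for a test of single arrays that stand apart.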

How the results depend on the processing

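No call of the 41 genes changed direction in the settings run. Counts of called genes that moved by over 1.5 times were as follows. Normexp with offset 0 gave 3 from 24 to 48 h and 8 from 48 to 72 h. Median centring gave 0 at 3 h and at 8 h, 3 genes at 24 h, 10 genes at 48 h, and 0 in each of the 4 steps between times. The software's log ratios and the authors' value table each gave 0 at 3 h, 0 from 3 to 8 h, 2 from 24 to 48 h and 8 from 48 to 72 h. Requiring both dyes well above background on all arrays gave 3 from 8 to 24 h, and an intensity trend gave 1 at 3 h. Normexp fitted on all spots gave 0 from 3 to 8 h, 3 from 8 to 24 h and 1 for control livers over time. Without scaling between arrays, treated livers gave 0.

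Replicate numbers were not taken to pair the mice: deviations of same-numbered arrays correlated between -0.07 and 0.32 across time points. The numbers follow the scan day, replicates 1 and 2 on day 1 and replicate 3 on day 2, so the replicate block is also a block for scan day. With it the control livers gave 1, and the other counts stayed within 1.5 times. Leaving out single arrays gave 0 to 3 calls at 3 h and 2 to 11 calls at 8 h. At 24 h it gave 4 to 8, at 48 h 13 to 25, and at 72 h 0. It gave 0 to 1 from 3 to 8 h, 2 to 5 from 8 to 24 h, 2 to 6 from 24 to 48 h, 6 to 14 from 48 to 72 h, 0 for control livers and 6 to 15 for treated livers. The low ends came without an array of that comparison, apart from 3 h, where leaving out either 8 h array also gave 0; without either 72 h array 8 h gave 11. The cause of these moves was not tested.

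Over all genes, median centring called 29, 128, 852 and 1734 at 3, 8, 24 and 48 h against 1285, 3781, 4737 and 7983, and the higher share at 48 h went from 56.9% to 83.1%. Normexp on all spots called 2605 at 24 h. Dim probes limit the values of Mcm2, Prim2, Uhrf1, Rfc3, Pola2, Chaf1a and the 4 untested genes, and the 72 h array of mouse 1. The treated channel of the mouse 1 arrays was also dim at 3 h and 24 h, with 45.6% and 52% of probes well above background.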
